A study of Mus musculus with 2 samples.

Results

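Potassium channel genes were compared between the young adult and the growing mouse lens. The members were the genes whose single symbol on the array platform starts with Kcn followed by a lower-case letter, except Kcnj8. This gave 83 of the 18194 genes named on the array, of which 80 encode channel proteins and 3 (Kcnq1ot1, Kcnmb4os1 and Kcnmb4os2) are non-coding transcripts filed under a channel symbol. The samples were P60 lens, from 60-day-old mice, and P7 lens, from 7-day-old mice. Both came from wild-type animals of the C57BL/6 strain (written C57/BL6 in the labels), and no allele, agent or treatment is named for either. RNA of pooled lenses was hybridised to 1 Affymetrix array per age, so no difference has a replicate check or a p-value, and all differences are given by size.

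Potassium channels let potassium ions cross the cell membrane down their gradient and hold the membrane at a negative voltage. Pore subunits fall into voltage-gated, calcium- or sodium-activated, inward rectifier and two-pore families, and auxiliary subunits change how the pores open or reach the membrane. The lens has no blood supply of its own in the adult, and its cells keep potassium high inside and sodium low through sodium-potassium pumps that work together with potassium channels, mainly in cells near the surface.

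Values are MAS5 signal intensities, a linear measure per probe set (several short probes that together read 1 transcript). The floor, under which a value was treated as not measured, was set at 103.9, the median over both arrays together. Each gene was read on the probe set whose log2 signal, averaged over both arrays, was highest. A value below the floor was replaced by the floor when the log2 ratio of P60 over P7 was formed, so such a ratio is a bound. Medians of all 45101 probe sets were 93.9 on the P60 array and 113 on the P7 array. The ratio of 5′ to 3′ signal of beta-actin, which drops where RNA or cDNA is less complete, was 0.606 at P60 and 0.785 at P7. The log2 ratios of probe sets of the same gene spread with a pooled SD of 0.58 over 4239 genes. Only probe sets whose signal passed the floor at P60 and also at P7 entered this SD. It is the only error these arrays give and leaves out differences between animals and pools. For a gene with a value under the floor it is no direct error. Signals of different probe sets do not share a scale, so a level is compared between the ages and not with the level of another gene. Mean intensity served only to choose the probe set of a gene and some of the genes described. In pooled tissue, fewer cells of a type and less RNA per cell cannot be told apart.

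Of the 83 potassium channel genes, 43 were measured, that is above the floor on at least 1 array (51.8%, against 71.6% of all named genes). Above the floor on both arrays were 21 of the 43 (48.8%, against 81.3% of all 13029 measured genes). Another 8 were above it at P60 only and 14 at P7 only. Both values were under 200 for 19 of the 43 (44.2%, against 19.6% of all measured genes). The family was thus mostly read close to the floor, where ratios are held in.

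At P60, 8 of the 43 measured members were at least 2-fold higher than at P7 (18.6%) and 7 were at least 2-fold lower (16.3%), while 28 lay within 2-fold. The background over all 13029 measured genes was 11.5% for the higher and 9.44% for the lower side. The median log2 ratio of the 43 was -0.09, beside 0.02 over all measured genes. A gene measured on 1 array only had to lie on that array's side, so the members above the floor on both arrays were also counted. Of these 21, 6 were higher (28.6%, against 11.8% of the 10599 such genes) and 2 were lower (9.52%, against 8.38%). The lower share on both arrays is near the background. With 1 array per age the excess on the higher side is a count of 6 genes with no test behind it. The background genes were also not matched to the members for signal. The 6 were Kcna5, Kcnh1, Kcne4, Kcnab1, Kcnk1 and Kcnj12, and the 2 were Kcnd3 and Kcnma1.

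**Figure D1:**
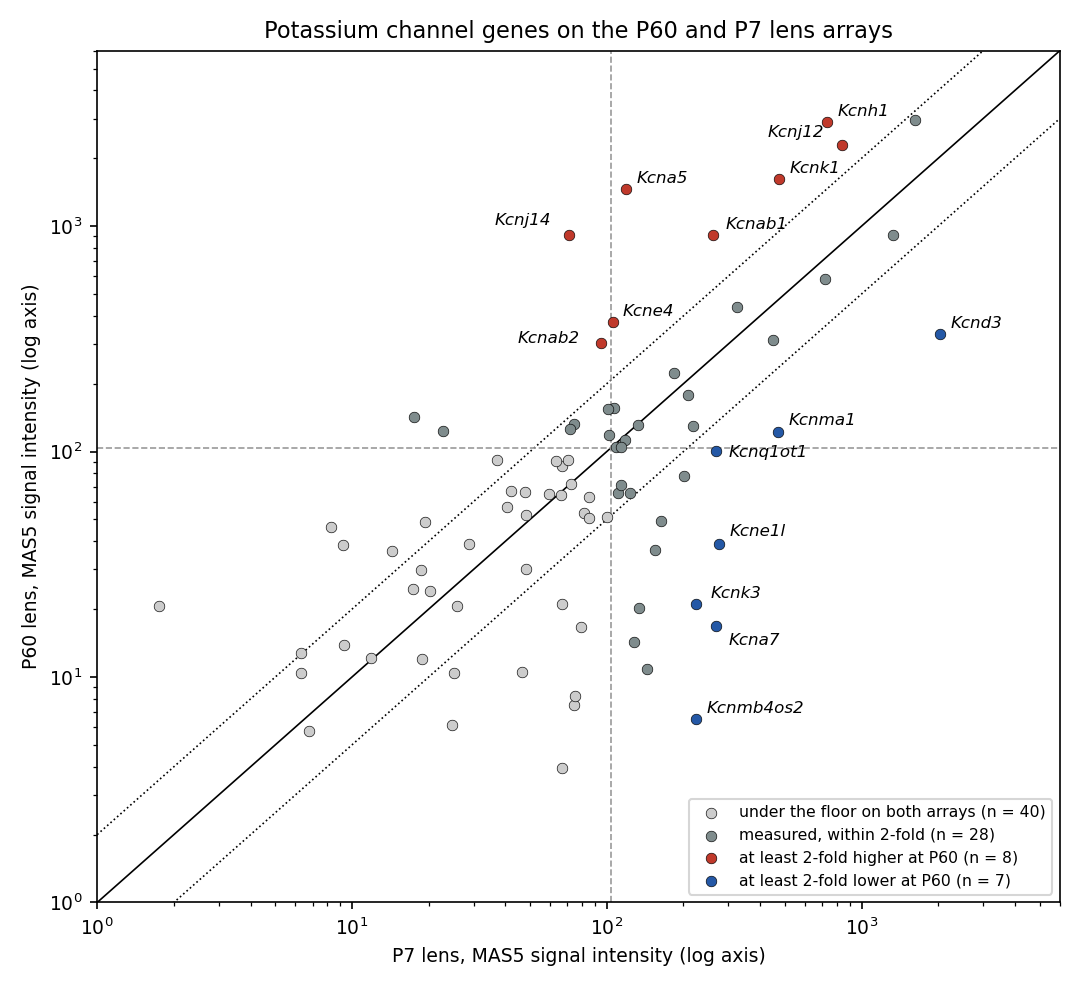
Intensity of each of the 83 potassium channel genes on the P60 array (vertical, log axis) against the P7 array (horizontal, log axis). The solid line marks equal values, the dotted lines 2-fold differences and the dashed lines the floor of 103.9. Kcna5 and Kcnj14 stand furthest above the 2-fold line, Kcnd3 lies below it at a P7 intensity of 2032, and 40 genes lie under the floor on both arrays.

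Voltage-gated pore subunits of the Kv1 to Kv4 groups open on depolarisation. Of 13 such genes 8 were measured, 1 at least 2-fold higher, 2 lower and 5 within 2-fold. Kcna5, which encodes Kv1.5, a delayed rectifier known from atrial and vascular smooth muscle, had an intensity of 1461 at P60 and 119 at P7. It was 12.3-fold higher at P60, a log2 ratio of 3.62 that ranked 31 of 13029 measured genes, and it was read on 1 probe set. Its P7 value lay just above the floor, so this fold is close to a bound.

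In the reference gene order, Kcna5 lies next to Kcna1, and Kcna1 next to Kcna6, on mouse chromosome 6. These neighbours lay within 2-fold: Kcna1 had 65.6 at P60 and 123 at P7, and Kcna6 had 126 at P60 and 71.9 at P7. Both were near the floor, and both had measured probe sets on either side of 0 (log2 ratios from -0.24 to 0.44 for Kcna1 and from -0.18 to 0.27 for Kcna6). The remaining Kv1 gene past 2-fold was Kcna7, the gene of Kv1.7, with 16.8 at P60 and 268 at P7. It was at least 2.58-fold lower at P60, on 1 probe set.

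Kcnd3 encodes Kv4.3, a pore subunit of fast inactivating A-type currents. Its intensity was 331 at P60 and 2032 at P7 on the probe set used, which is 6.14-fold lower at P60 and ranked 12955 of 13029. Its other measured probe set read 136 at P60 and 112 at P7, a log2 ratio of 0.29 in the opposite direction. The other two read 6.94 and 2.20 at P60 against 88.2 and 18.1 at P7, all under the floor. The lower value of Kcnd3 therefore rests on 1 probe set. Its relative Kcnd1 had 224 at P60 and 183 at P7, with both measured probe sets within 2-fold, and Kcnd2 was under the floor on both arrays. Kcna3 (71.0 at P60 and 114 at P7) and Kcnc4 (14.3 at P60 and 128 at P7) were measured at P7 only and stayed within 2-fold on floored values.

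Modifier subunits of the Kv5, Kv6, Kv8 and Kv9 groups form no channel alone but join Kv2 pores. Of 9 genes 3 were measured and none passed 2-fold. Kcns3 had 178 at P60 and 208 at P7, Kcng2 had 113 at P60 and 118 at P7, and Kcnv2, known from photoreceptors, had 133 at P60 and 74.1 at P7. Of 3 KCNQ genes, whose channels open slowly near rest, Kcnq1 and Kcnq5 were above the floor at P7 only. Kcnq1 had 49.2 at P60 and 163 at P7 (at least 1.57-fold lower), and Kcnq5 had 65.8 at P60 and 111 at P7.

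The EAG, ERG and ELK genes encode voltage-gated channels with a cyclic nucleotide binding homology domain. Kcnh1, the EAG1 channel gene, read 2903 at P60 and 730.5 at P7 and was 3.97-fold higher at P60. Its second probe set read 2243 at P60 and 439.7 at P7, 5.10-fold higher, so both probe sets stood on the same side. Kcnh2, the ERG1 gene known for the cardiac repolarising current, read 2948 at P60 and 1623 at P7. Its 1.82-fold difference did not reach 2-fold. Kcnh3, an ELK gene known mainly from forebrain, read 312 at P60 and 451 at P7, and its 4 probe sets had log2 ratios from -0.88 to -0.20. Of 6 genes in this family, Kcnh5, Kcnh7 and Kcnh8 were under the floor on both arrays.

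Calcium- and sodium-activated channels couple potassium flow to those ions. Of 8 genes 4 were measured. Kcnma1, which encodes the pore of the large-conductance BK channel, read 123 at P60 and 472 at P7 and was 3.85-fold lower at P60. The P60 value lay just above the floor, so this fold is close to a bound. Its other measured probe sets read 90.9 at P60 and 255 at P7, 71.8 at P60 and 195 at P7, and 212 at P60 and 215 at P7. Thus 3 of its 4 measured probe sets were lower at P60, and 1 had a log2 ratio of -0.02. Kcnn2 (10.9 at P60 and 143 at P7) and Kcnn4 (20.3 at P60 and 134 at P7), small- and intermediate-conductance channel genes, were measured at P7 only and lay within 2-fold on floored values. Kcnu1, the pH-sensitive channel gene known from sperm, had 155 at P60 and 107 at P7.

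Inward rectifiers pass potassium more easily into than out of the cell and steady the resting voltage. Of 14 genes 7 were measured, 2 at least 2-fold higher and none lower. Kcnj14, the gene of Kir2.4, read 914 at P60 and 71.2, under the floor, at P7, so it was at least 8.80-fold higher at P60 and ranked 61 of 13029. Kcnj12, the gene of the strong rectifier Kir2.2, read 2293 at P60 and 839 at P7 and was 2.73-fold higher. Both belong to the Kir2 group and each was read on 1 probe set. Kcnj2 and Kcnj4, the remaining members of that group analysed, were under the floor on both arrays.

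Kcnj11 encodes Kir6.2, the pore of ATP-sensitive channels, and read 910.9 at P60 and 1327 at P7, a log2 ratio of -0.54. Abcc8, which encodes the sulfonylurea receptor that completes those channels in pancreatic beta cells and neurons, was 3.52-fold lower at P60 (335 at P60 and 1181 at P7). The other probe set of Abcc8 had a log2 ratio of -2.13. Abcc9, the related receptor gene of muscle, read 277 at P60 and 294 at P7. Kcnj13, the gene of Kir7.1 known from retinal pigment and other transporting epithelia, read 582 at P60 and 720.0 at P7. Kcnj10, the glial Kir4.1 gene, read 77.6 at P60 and 202 at P7, and was at least 1.94-fold lower, just inside the 2-fold limit. Its partner Kcnj16 (Kir5.1) read 36.6 at P60 and 155 at P7, and Kcnj3, a G-protein-gated channel gene, read 155 at P60 and 101 at P7.

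Two-pore subunits carry leak currents that are open at rest. Of 12 genes 6 were measured. Kcnk1, the TWIK1 gene, read 1619 at P60 and 474 at P7, 3.42-fold higher at P60. Its second probe set read 306 at P60 and 133 at P7, 2.31-fold higher, on the same side. Kcnk3, the acid-sensitive TASK1 gene, read 21.1 at P60 and 224 at P7 which makes it at least 2.16-fold lower at P60. The remaining probe sets, both under the floor at both ages, read 96.9 and 8.67 at P60 against 13.4 and 14.7 at P7, which is no shared direction. Kcnk4, Kcnk6, Kcnk12 and Kcnk16 stayed within 2-fold, with P60 intensities from 105 (Kcnk6) to 142 (Kcnk16) and log2 ratios from -0.11 to 0.45.

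**Figure D2:**
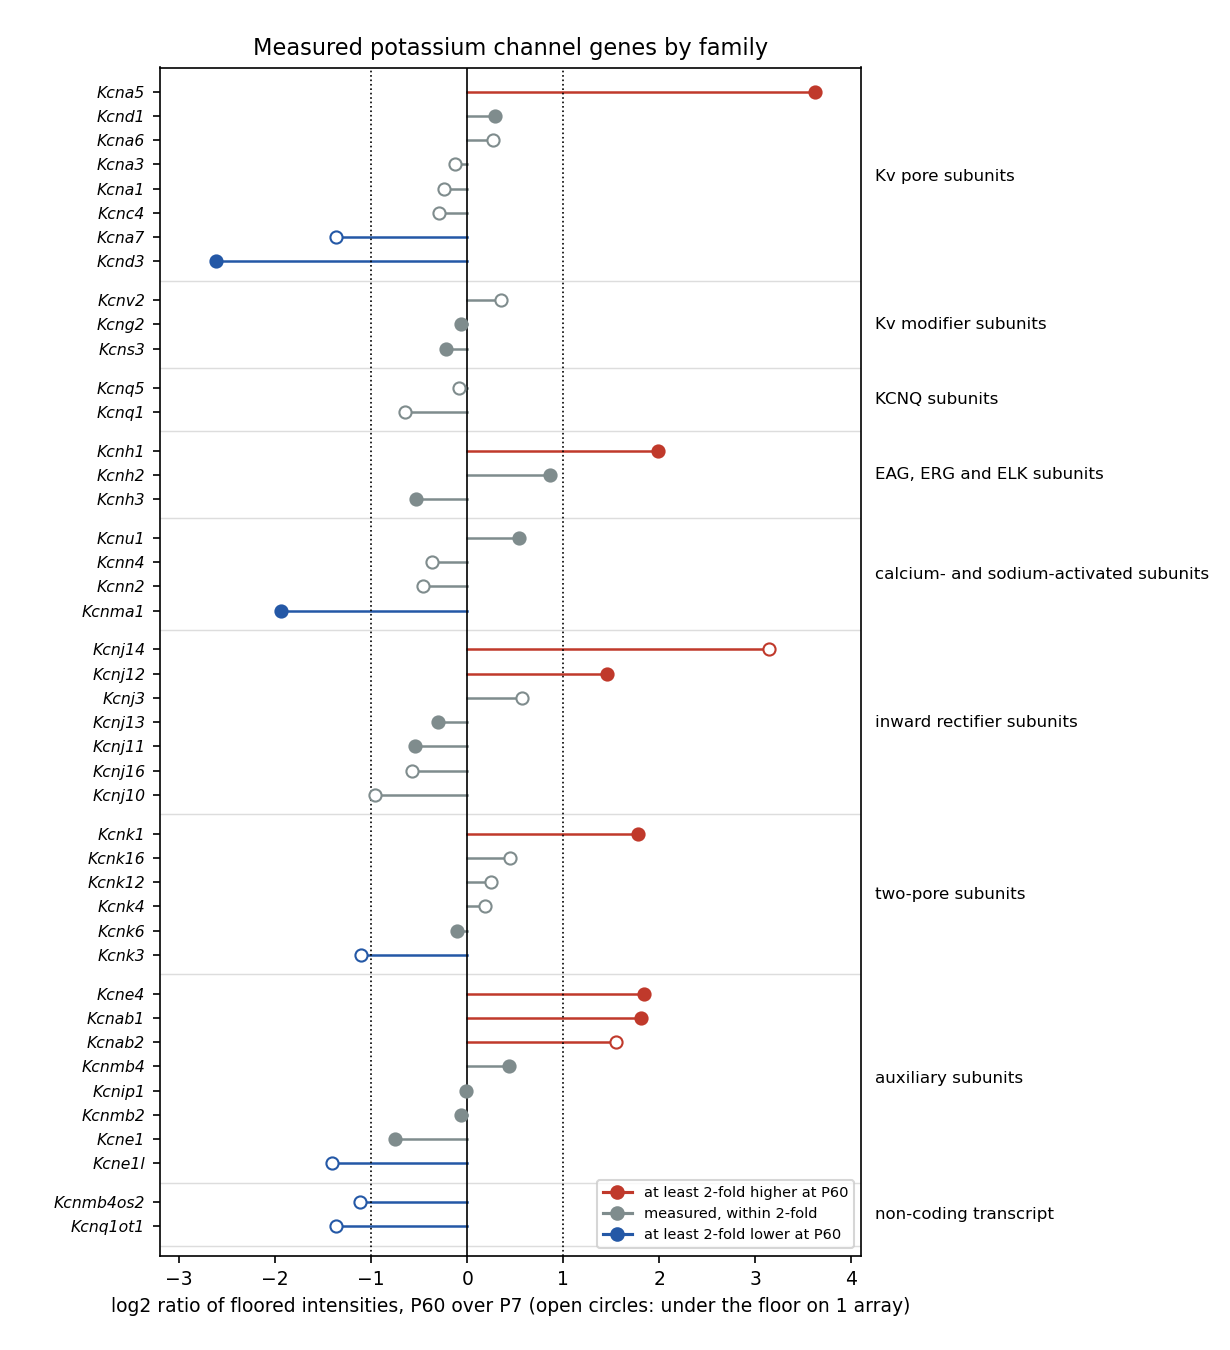
Log2 ratio of floored intensities, P60 over P7, for the 43 measured potassium channel genes, grouped by family, with open circles where 1 array was under the floor. Dotted lines mark 2-fold. Higher and lower genes occur side by side in the Kv pore, two-pore and auxiliary families, with log2 ratios from -2.62 (Kcnd3) to 3.62 (Kcna5).

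Auxiliary subunits bind the pores named above. Of 15 genes 8 were measured, 3 at least 2-fold higher and 1 lower. The cytoplasmic beta subunits of Kv1 channels were among the higher ones. Kcnab1 read 915 at P60 and 262 at P7, 3.49-fold higher, and Kcnab2 read 305 at P60 and 94.97, under the floor, at P7, at least 2.93-fold higher. The second probe set of each was under the floor on both arrays, and Kcnab3 was too. Kcne4, a single-pass subunit known to inhibit Kv1 and KCNQ1 currents, read 376 at P60 and 105 at P7, 3.57-fold higher, with its P7 value just above the floor.

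Among the other single-pass subunits, Kcne1l, now named Kcne5, read 38.7 at P60 and 275 at P7 and was at least 2.65-fold lower. Kcne1, the partner of KCNQ1 in the slow cardiac current, read 129 at P60 and 219 at P7, and stayed within 2-fold. Its probe sets gave log2 ratios of -0.76 and -0.37. Kcne2 and Kcne3 were under the floor on both arrays. The BK partner genes lay within 2-fold: Kcnmb4 read 436 at P60 and 323 at P7, Kcnmb2 read 104 at P60 and 109 at P7, and Kcnmb1 was under the floor on both arrays. Kcnip1, a calcium-binding partner of Kv4 pores, read 131 at P60 and 133 at P7, a ratio near 0. Kcnip2, Kcnip3 and Kcnip4 were under the floor on both arrays.

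Both measured non-coding transcripts were lower at P60. Kcnq1ot1, the paternally expressed RNA that starts within Kcnq1 and silences neighbouring genes in cis, read 100.4, under the floor, at P60 and 268 at P7, at least 2.58-fold lower. Its 3 measured probe sets had log2 ratios from -1.45 to -1.23, and all 6 probe sets read lower at P60. Kcnmb4os2, an opposite-strand transcript of the Kcnmb4 locus, read 6.53 at P60 and 225 at P7, at least 2.16-fold lower. Kcnmb4 itself, the coding gene, had a log2 ratio of 0.43. Without these transcripts, a choice made after seeing the data, 8 of 41 coding members were higher and 5 lower. These are 19.5% and 12.2%, against 11.5% and 9.43% of all measured genes, so the lower share is nearer the background.

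**Figure D3:**
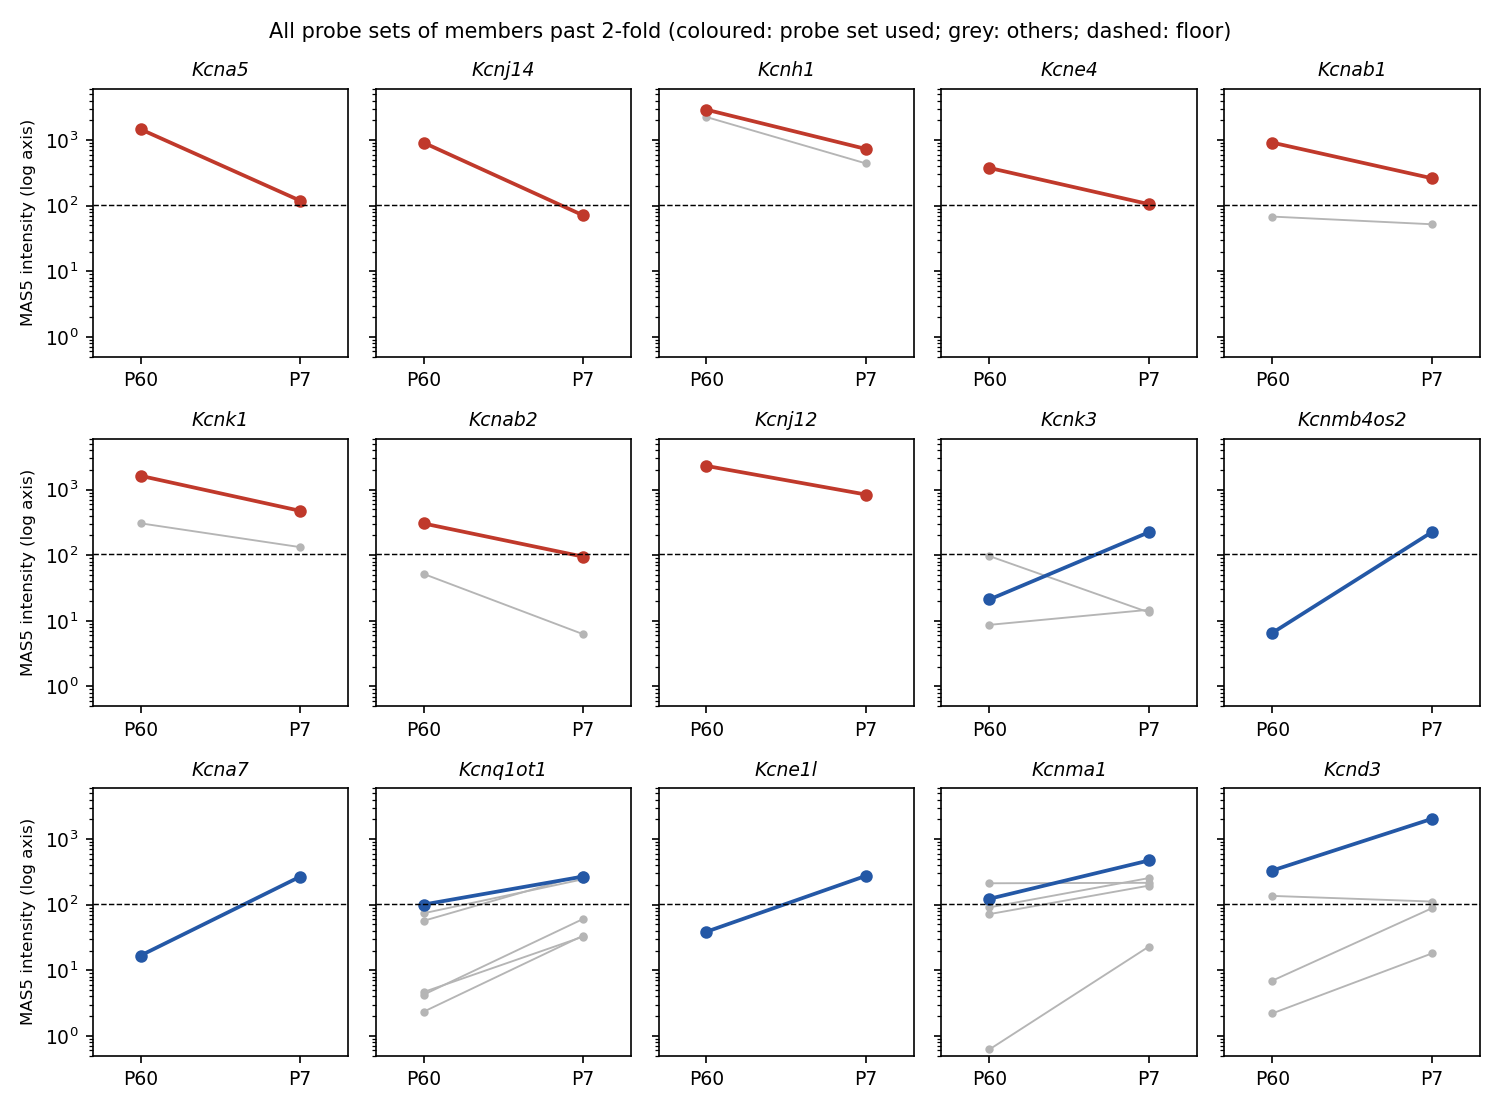
Intensity (log axis) at P60 and P7 of every probe set of the 15 genes past 2-fold, with the probe set used in colour, the others in grey and the floor dashed. The probe sets run together for Kcnh1, Kcnk1 and Kcnq1ot1, whereas for Kcnd3 the probe set used reads 331 at P60 and 2032 at P7 and another reads 136 at P60 and 112 at P7.

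Promoter windows were examined because members of different families stood on the same side at P60. RefSeq windows of the GRCm38.p6 build, 300 bases long and ending shortly after the gene start, were found for 63 of the 83 members (88 windows). For the higher genes 7 of 8 had 11 windows, and for the lower genes 6 of 7 had 6. Kcnab1 and Kcnab2, both higher, had several windows each, so a share of windows is not a share of genes. The GC box (letters GGGCGG, either strand) is a binding motif of Sp1-type factors. It was in 27.3% of the windows of higher genes and 50% of those of lower genes. The share was 48.9% of all member windows and 35.7% of all 32851 windows. The higher genes with a GC box were Kcnab1, Kcnab2 and Kcnh1, and the lower ones Kcne1l, Kcnma1 and Kcnmb4os2. The E-box (CACGTG, a palindrome) was in 3 windows of higher genes, 2 of Kcnab1 and 1 of Kcne4, in no window of lower genes and in 7.15% of all windows. The D-box (TTATGTAA, either strand), bound by clock output factors, was in no member window and in 0.938% of all windows. Median GC content was 55.0% for windows of higher genes, 62.8% for those of lower genes and 52.7% for all windows. These are matches in short windows of few genes and are given as a description.

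The windows of the highest and lowest Kv genes, Kcna5 and Kcnd3, and of Kcnh1 and Kcnma1, which were read on more than 1 probe set, show how unlike these starts are. Capitals mark GC boxes. Kcna5 holds 4 CG dinucleotides and Kcnd3 25, both without a GC box, while Kcnh1 holds 27 with 2 GC boxes and Kcnma1 36 with 3.
Kcna5, chr6:126535506-126535805, strand minus: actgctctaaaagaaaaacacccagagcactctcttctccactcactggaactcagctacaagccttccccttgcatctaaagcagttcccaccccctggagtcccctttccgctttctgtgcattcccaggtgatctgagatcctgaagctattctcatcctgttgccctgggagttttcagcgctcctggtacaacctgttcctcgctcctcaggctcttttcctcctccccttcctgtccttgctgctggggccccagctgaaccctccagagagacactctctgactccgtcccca
Kcnh1, chr1:192190527-192190826, strand plus: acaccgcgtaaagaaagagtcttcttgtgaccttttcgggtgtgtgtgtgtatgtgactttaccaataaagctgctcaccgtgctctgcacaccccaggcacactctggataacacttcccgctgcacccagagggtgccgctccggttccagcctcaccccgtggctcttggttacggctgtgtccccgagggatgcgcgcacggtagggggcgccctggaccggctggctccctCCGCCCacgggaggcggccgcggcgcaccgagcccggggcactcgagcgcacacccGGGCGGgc
Kcnd3, chr3:105451640-105451939, strand plus: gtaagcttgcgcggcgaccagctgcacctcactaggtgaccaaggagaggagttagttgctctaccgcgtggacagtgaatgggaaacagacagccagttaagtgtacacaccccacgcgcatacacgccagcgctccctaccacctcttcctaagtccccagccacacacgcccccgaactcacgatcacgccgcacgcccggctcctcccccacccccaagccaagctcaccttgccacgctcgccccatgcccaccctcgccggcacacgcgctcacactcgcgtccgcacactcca
Kcnma1, chr14:24004156-24004455, strand minus: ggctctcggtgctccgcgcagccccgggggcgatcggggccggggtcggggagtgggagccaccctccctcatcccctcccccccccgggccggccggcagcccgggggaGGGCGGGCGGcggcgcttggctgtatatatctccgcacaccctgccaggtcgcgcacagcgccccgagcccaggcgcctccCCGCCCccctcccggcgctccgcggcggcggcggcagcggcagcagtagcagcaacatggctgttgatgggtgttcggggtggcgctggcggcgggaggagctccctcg

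Potassium also moves through pumps, cotransporters and partner proteins outside the Kcn symbols. Of 39 such genes analysed 31 were measured, 6 at least 2-fold higher at P60 (19.4%, against 11.5% of all measured genes) and 1 lower (3.23%, against 9.44%). Their median log2 ratio was 0.07, beside 0.02 over all measured genes. All 6 higher genes and the lower one were among the 24 above the floor on both arrays, where the background was 11.8% higher and 8.38% lower. Among pump subunits, Fxyd1, which encodes phospholemman, a regulator of the sodium-potassium pump, read 10435 at P60 and 1439 at P7, 7.25-fold higher. The pump beta subunit genes Atp1b1 (4629 at P60 and 1398 at P7) and Atp1b3 (22548 at P60 and 10229.9 at P7) were 3.31-fold and 2.20-fold higher. The measured probe sets of Atp1b1 spread from 0.05 to 1.87, so only some of them showed the difference.

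Slc12a2, the sodium-potassium-chloride cotransporter NKCC1 that brings potassium into cells, read 10186 at P60 and 2607 at P7, 3.91-fold higher, with its probe sets from 1.37 to 1.97. Slc12a4, a potassium-chloride cotransporter that lets potassium out, read 399 at P60 and 193 at P7, 2.07-fold higher. Sgk1, a kinase that raises the activity of several channels and transporters, read 3039 at P60 and 1167 at P7, 2.60-fold higher. The kinase genes Wnk1 (7173 at P60 and 6280.4 at P7) and Stk39 (2548 at P60 and 4239 at P7), which control these cotransporters, lay within 2-fold on the probe sets used. Each also had a measured probe set past 2-fold lower at P60, at a log2 ratio of -1.46 for Wnk1 and -1.01 for Stk39. Abcc8, described above, was the 1 lower gene of this list.

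**Figure D4:**
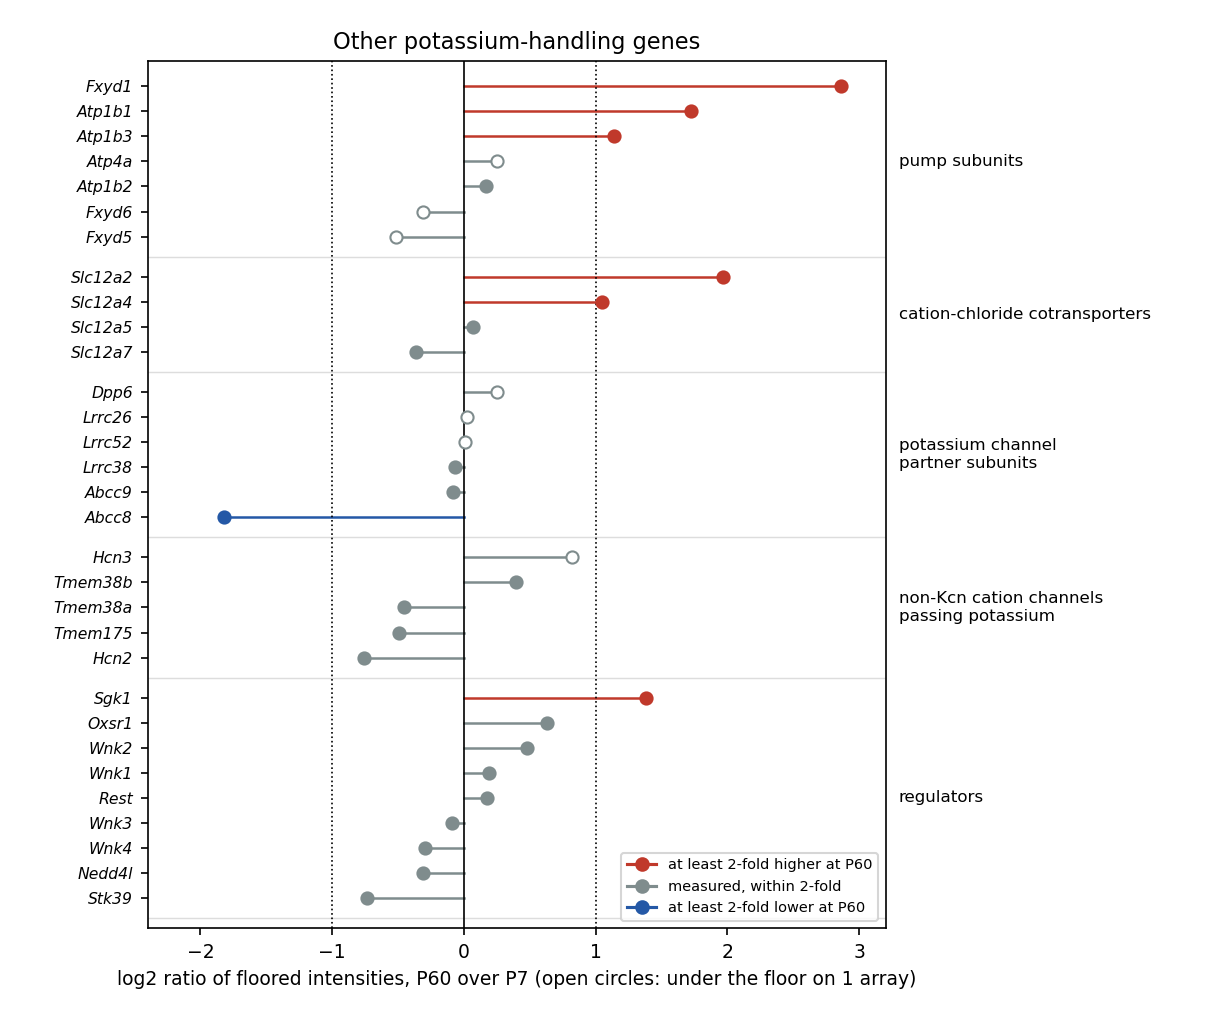
Log2 ratio of floored intensities, P60 over P7, for the 31 measured potassium-handling genes outside the Kcn symbols, grouped by role, with open circles where 1 array was under the floor. Dotted lines mark 2-fold. Fxyd1 has the highest ratio at 2.86 and Abcc8 the lowest at -1.82.

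Markers of other cells differed between the pools beside these results. A sum over markers adds probe sets that share no scale and follows the brightest of them, so it is only set against the same sum at the other age. The 7 lens fibre markers summed to 360568 at P60 and 361467 at P7 and all lay within 2-fold. Of 8 neuronal markers 7 were measured and 5 were at least 2-fold lower at P60, with summed intensities of 727 at P60 and 3431 at P7. Snap25, a synaptic gene, was 7.17, under the floor, at P60 and 517 at P7. Of 8 vascular endothelial markers 6 were measured and all 6 were at least 2-fold lower, with sums of 548 at P60 and 3366 at P7. Some members also expressed in brain were lower at P60, such as Kcnd3, Kcnma1 and Kcnk3, and others higher, such as Kcnh1, Kcnab1, Kcnab2 and Kcnk1. No list of brain-expressed members was made, so these are examples and the number on each side carries no weight. The part of neurons and vessels in the members' values was not tested.

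Of 8 pericyte and smooth muscle markers 5 were measured, 2 higher and 2 lower, with sums of 38506 at P60 and 13448 at P7 in which Acta2 was the brightest at P60. Acta2 (32524 at P60 and 2764 at P7) and Pdgfrb were higher and Rgs5 and Notch3 lower, while Myh11 and Cnn1, which define smooth muscle, were under the floor on both arrays. The part of these cells in the Kcna5 and Kcne4 values was not tested. Of 5 skeletal muscle markers 3 were measured and Actn3 was 2.05-fold higher, with Ckm and Myh4 under the floor on both arrays. Of 4 Müller glia markers, relevant to Kcnj10, Aqp4 and Glul were at least 2-fold higher and Rlbp1 lower, with sums of 9219 at P60 and 2834.0 at P7. Of 4 retinal pigment epithelium markers, relevant to Kcnj13, Rpe65, Best1 and Lrat were under the floor on both arrays and Ttr was 2.11-fold higher. The 7 photoreceptor markers went both ways, 1 higher and 2 lower, with sums of 2148 at P60 and 3013 at P7. Pigment cell markers summed to 869.9 at P60 and 1852 at P7, and macrophage markers to 773 at P60 and 851 at P7. The 4 erythroid markers analysed summed to 60.5 at P60 and 453 at P7, with every P60 value under the floor. Only 2 of these 4 were measured, at P7 only, and both lay within 2-fold on floored values. Corneal markers summed to 18990.0 at P60 and 328 at P7 through Aldh3a1, with Krt12 under the floor on both arrays. The lens epithelial markers Cdh1 and Gja1 were higher at P60, Foxe3 was lower and Pax6 lay within 2-fold. The measured probe sets of Gja1 had log2 ratios from -0.37 to 2.72. This list summed to 46234 at P60 and 21380.3 at P7, with Gja1 the brightest at both ages.

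The 40 members under the floor on both arrays were 5 of the Kv pore genes, 6 modifiers, Kcnq3, 3 of the EAG, ERG and ELK family, 4 calcium- or sodium-activated genes, 7 inward rectifiers, 6 two-pore genes, 7 auxiliary subunits and Kcnmb4os1. They include Kcna2, Kcna4, Kcnc2, Kcnd2, Kcnf1, Kcnv1, Kcnn1, Kcnn3, Kcnt2, Kcnj1, Kcnj5, Kcnj9, Kcnj15, Kcnk2, Kcnk5, Kcnk10, Kcnk13, Kcne2 and Kcne3. For 3 of them, Kcnc1, Kcnt1 and Kcnj6, a dimmer probe set passed the floor on 1 array, at log2 ratios of -0.50, -0.28 and -0.31. A signal under the floor does not show that a gene was not transcribed.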

How the data were processed

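RNA from 1 pool of lenses per age was measured on 1 array each. The deposited intensity values are MAS5 signals, per the submitters' processing notes. Version, scaling target and detection calls: not given in the sources used here. Names came from the platform's annotation table, in which 34958 probe sets had 1 symbol, 932 several and 9211 none, and 34754 matched a current gene number. From the intensities, the floor, log2 ratios and 2-fold counts were computed with Python 3.11.15, pandas 2.3.3 and numpy 2.4.6, and the calculation was tested on simulated data. The simulated log2 noise had an SD of 0.3, and the planted changes lay in genes well above the floor. They do not cover members read near the floor. No test between the ages is possible, and the number of arrays limits precision.

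The members and gene lists were chosen with earlier results of these data known. Every measured member is named, with full values for those past 2-fold and for the 10 with the highest mean log2 intensity; of the other potassium-handling genes, those past 2-fold and the 5 with the highest mean. Alternatives were other floors, a pseudocount of 16, other probe set choices, other scalings, 3-fold and genes above the floor on both arrays. Promoter windows came from RefSeq (GRCm38.p6).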

Additional observations from a re-analysis of the deposited data

How the results depend on the processing

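The count of 8 higher members ranged from 6 to 10 over the alternatives. It was 6 of 24 measured members with a floor of 200, beside 11.3% of all genes. When both arrays had to pass the floor it was 6 of 21, beside 11.8%. At 3-fold it was 6 of 43, beside 4.23%. With log2(intensity + 16) and no floor it was 10 of 43, beside 13.4%. The count of 7 lower members was less steady. It was 2 of 24 with a floor of 200, beside 7.84% of all genes. When both arrays had to pass the floor it was 2 of 21, beside 8.38%. At 3-fold it was 2 of 43, beside 3.11%. With log2(intensity + 16) and no floor it was 13 of 43, where 14.1% of all genes were lower. By construction, the floor of 200 and the rule for both arrays remove or shrink ratios that rest on values near the floor. The median log2 ratio of the members ran from -0.12 to 0.14, the latter with quantile normalization. Of the 31 other potassium-handling genes measured, 3 were higher at 3-fold, beside 4.23% of all genes. Their lower count was 2 with the pseudocount (14.1% of all genes) and 3 with the dimmest probe sets (10.4%). It was 2 of 30 without the less specific probe sets (IDs ending in _x_at or _s_at), beside 9.52%. Kcnd3 changed direction with its dimmest measured probe set (0.29), and Kcnma1 fell within 2-fold with its own (-0.91). Over 128 values of single members past 2-fold, 110 moved by less than the probe set SD, 17 by more and 1 reversed. For a member with 1 measured probe set, the other probe set choices return the same value by construction. The 110 therefore include values that could not move and are no measure of steadiness. The SD also leaves out signals under the floor, on which several of these members rest at 1 of the ages. Kcna5, Kcnj14, Kcnh1, Kcnab1, Kcnk1 and Kcnj12 stayed past 2-fold in every alternative that gave a value. Of these, Kcna5, Kcnj14, Kcnab1 and Kcnj12 have 1 measured probe set, so the probe set choices could not change their values. Kcnj14 gave no value when both arrays had to pass the floor. No paired analysis was possible because each age has 1 array. Differences near the floor are not detectable at this signal.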
